A study of Mus musculus with 12 samples.

Results

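The 73 genes described here belong by name to the families of enzymes that add acetyl or methyl groups to histone lysines or take them off. They were taken by symbol from the 28643 gene symbols used from the deposited table: the lysine acetyltransferases of the Kat2 to Kat8 series, the histone deacetylases (Hdac) and sirtuins (Sirt), the lysine methyltransferases named Kmt2, Kmt5, Setd, Suv39h, Ehmt, Nsd, Ash1l and Ezh, and the lysine demethylases (Kdm). Dot1l and symbols of processed copies marked -ps were left out. By activity they comprised 7 acetyltransferases, 18 deacetylases, 24 methyltransferases, 18 demethylases and 4 further SET-domain genes (Setd3, Setd4, Setd5 and Setd6). The other 2 were Kdm4dl, an unprocessed pseudogene, and Kdm6bos, an antisense transcript of Kdm6b. Since the choice was by symbol, it also holds enzymes that act mainly elsewhere, such as Hdac6 on tubulin, the mitochondrial Sirt3, Sirt4 and Sirt5, and Setd3, which methylates a histidine of actin.

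Acetylation of histone tails loosens nucleosomes and is read by bromodomain proteins, and deacetylases reverse it. Lysine methylation carries a meaning that depends on the residue: H3K4 methylation marks promoters and enhancers, H3K36 methylation marks transcribed gene bodies, and methylation of H3K9, H3K27 and H4K20 is tied to silent chromatin. In round spermatids, the haploid cells that follow meiosis, the enzymes act on chromatin that is still nucleosomal, and a wave of histone H4 acetylation later precedes the exchange of histones for transition proteins and protamines.

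The libraries came from round spermatids of 8-week-old male mice, sorted by flow cytometry with cycloheximide, a blocker of translation elongation, present throughout. Igf2bp3-/- mice carried a Cas9-made frameshift in the gene of the RNA-binding protein IGF2BP3 on both alleles, and Igf2bp3+/- mice, with 1 mutated allele, were the controls, so no group had both alleles intact. By the study's methods the frameshift was made in zygotes, in the exon of the first KH domain, and is carried by all cells of the body. Igf2bp3-/- males could also be bred from homozygous parents. To limit variability, the study picked knockout males of impaired fertility for the figures that hold these sequencing data. The Igf2bp3-/- groups were thus chosen by phenotype as well as by genotype. RNA-seq measured total poly(A) RNA and RNC-seq (ribosome nascent-chain complex sequencing) measured poly(A) RNA from the gradient fractions in which mRNAs carried at least 4 ribosomes, with 3 replicates in each of the 4 groups and 12 libraries in all. Values are FPKM, a read density per transcript length and library size, so that levels of different genes may be compared, and all log2 changes are on the log2(FPKM + 0.1) scale. The test was limma with Benjamini-Hochberg adjustment over all genes tested and a limit of 0.05.

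The targeted transcript could not be used to check the labels, since a frameshift need not remove it: Igf2bp3 itself read 38.2, 38.6 and 33.4 FPKM in control RNA-seq and 31.7, 32.5 and 31.4 FPKM in knockout RNA-seq. Round spermatid markers were high in every library, with 1395 to 1910 FPKM summed over 12 genes in RNA-seq, against 8.96 to 12.0 FPKM over 10 spermatogonial genes. Spermatocyte markers summed to 542 to 647 FPKM over 12 genes and elongating spermatid markers to 9406 to 12112 FPKM over 8 genes. The latter list holds Tnp1, Tnp2, Prm1 and Prm2, whose mRNAs the study also measured in sorted round spermatids. Its high sum therefore does not by itself mark elongating spermatids. The sums of the somatic lists were low and differed between the genotypes, and their values are given with that comparison. Within some groups 1 library was high for the enzymes. The RNC-seq library of Igf2bp3-/- replicate 2 held the highest of the 3 values for 33 of 61 members tested (54.1%, against 32.7% of all genes tested), and that of replicate 3 for 9 (14.8%, against 27.3%). The RNA-seq library of Igf2bp3+/- replicate 3 did so for 29 of 67 (43.3%, against 24.2%).

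Most of the enzyme mRNA in the control cells belonged to a few genes. In Igf2bp3+/- RNA-seq 17 of the 73 members averaged at least 10 FPKM, 32 averaged between 1 and 10, 18 between 0.1 and 1, and 6 were at or below 0.1 (Hdac8, Kdm4c, Kdm5d, Kmt2a, Setd7 and Sirt6). A filter on the mean over the libraries compared left 67 members to test in RNA-seq, without Hdac7, Kdm4c, Kdm5d, Kmt2a, Setd7 and Sirt6. Hdac8 passed it only through its higher Igf2bp3-/- values. In RNC-seq 61 members passed, and Ehmt1, Hdac6, Hdac8, Kat6a, Kdm3b and Kdm6a fell out as well. Kmt2d passed there only through its higher Igf2bp3-/- values, with a control RNC-seq mean of 0.0939 FPKM. The 4 most abundant members, Kat7, Hdac1, Kdm4d and Kat8, held 45.9% of the summed FPKM of the set. By activity the acetyltransferases held 30.1%, the deacetylases 27.6%, the demethylases 23.6%, the methyltransferases 15.4% and the further SET-domain genes 2.53%, although the methyltransferases were the most numerous class. The median member stood at 2.02 FPKM, near the 1.91 FPKM of all genes above 0.1.

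Among the acetyltransferases the MYST family dominated. Kat7, which acetylates H3K14 and H4 as HBO1, measured 103, 123.3 and 129 FPKM in the Igf2bp3+/- RNA-seq libraries (118 ± 14, SD, n = 3), the highest level of any member. Kat8, the H4K16 acetyltransferase of the MSL and NSL complexes, measured 45.5, 48.7 and 50.6 FPKM, and Kat5, the catalytic subunit of the NuA4/TIP60 complex, measured 28.3, 38.2 and 37.0 FPKM. The 3 sets of libraries did not overlap, so the order Kat7, Kat8, Kat5 held in each library. The GNAT enzymes Kat2b and Kat2a followed at 9.03 ± 0.51 and 5.08 ± 0.62 FPKM, and Kat6b and Kat6a, the large MYST enzymes, stood at 0.533 and 0.157 FPKM.

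Of the zinc-dependent deacetylases, Hdac1, the class I enzyme of the SIN3 and NuRD complexes, measured 86.6, 84.9 and 79.8 FPKM in the control RNA-seq libraries. Its near relative Hdac2 measured 5.84, 6.12 and 6.18 FPKM, and no Hdac1 library came near these values. The Hdac1 level is uncertain to the extent that reads were shared with near-identical copies: Gm10093 covered 70.9% of the longest Hdac1 transcript at 95% identity or more and was itself listed at 9.49 ± 0.40 FPKM. Hdac5 (12.7 ± 2.2 FPKM), a class IIa enzyme, Hdac11 (11.2 ± 1.5 FPKM), the single class IV enzyme, and Hdac3 (9.29 ± 0.86 FPKM), the catalytic subunit of the NCoR/SMRT complexes, formed the next tier, in which the libraries of neighbouring genes overlapped. Hdac6, the cytoplasmic tubulin deacetylase, was at 0.177 FPKM. Among the sirtuins, the NAD-dependent deacylases, Sirt2 (27.1 ± 1.0 FPKM), Sirt3 (21.9 ± 0.77 FPKM) and Sirt4 (15.1 ± 0.57 FPKM) did not overlap with each other, whereas the nuclear sirtuins Sirt1, Sirt7 and Sirt6 stood at 0.462, 0.274 and 0.0383 FPKM. Sirt3 and Sirt4 are mainly mitochondrial, and Sirt2 is mainly cytoplasmic.

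The demethylases were led by Kdm4d, an H3K9 demethylase with a testis-biased expression, at 72.4, 77.97 and 86.1 FPKM, far above its paralogs Kdm4b (3.01 ± 0.44 FPKM), Kdm4a (1.49 ± 0.23 FPKM) and Kdm4c. Kdm3a, the H3K9 demethylase that acts on the Tnp1 and Prm1 promoters, measured 24.1, 24.5 and 24.8 FPKM, with little spread between libraries. Kdm2b, an H3K36 demethylase of a variant PRC1 complex, and Kdm5b, an H3K4 demethylase, stood at 23.6 ± 3.1 and 20.7 ± 3.1 FPKM and overlapped with each other. Kdm1a, the flavin-dependent demethylase LSD1, averaged 8.79 ± 0.34 FPKM.

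Of the methyltransferases only Nsd2 (23.2 ± 1.3 FPKM), which dimethylates H3K36, Ezh2 (19.9 ± 1.9 FPKM), the catalytic subunit of PRC2, and Ehmt2 (16.9 ± 0.74 FPKM), the H3K9 enzyme G9a, exceeded 10 FPKM. The H3K9 trimethylating enzymes Setdb1 and Suv39h2 stood at 6.36 ± 0.66 and 5.56 ± 0.28 FPKM. All 8 members classed here as H3K4 methyltransferases were low. They ranged from 3.12 ± 0.31 FPKM for Setd1b down to 0.0637 FPKM for Kmt2a and 0.0470 FPKM for Setd7. Setd7 was listed at 0 in 2 of the 3 libraries. The plot of RNA-seq levels by library shows this order within each activity.

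**Figure D1:**
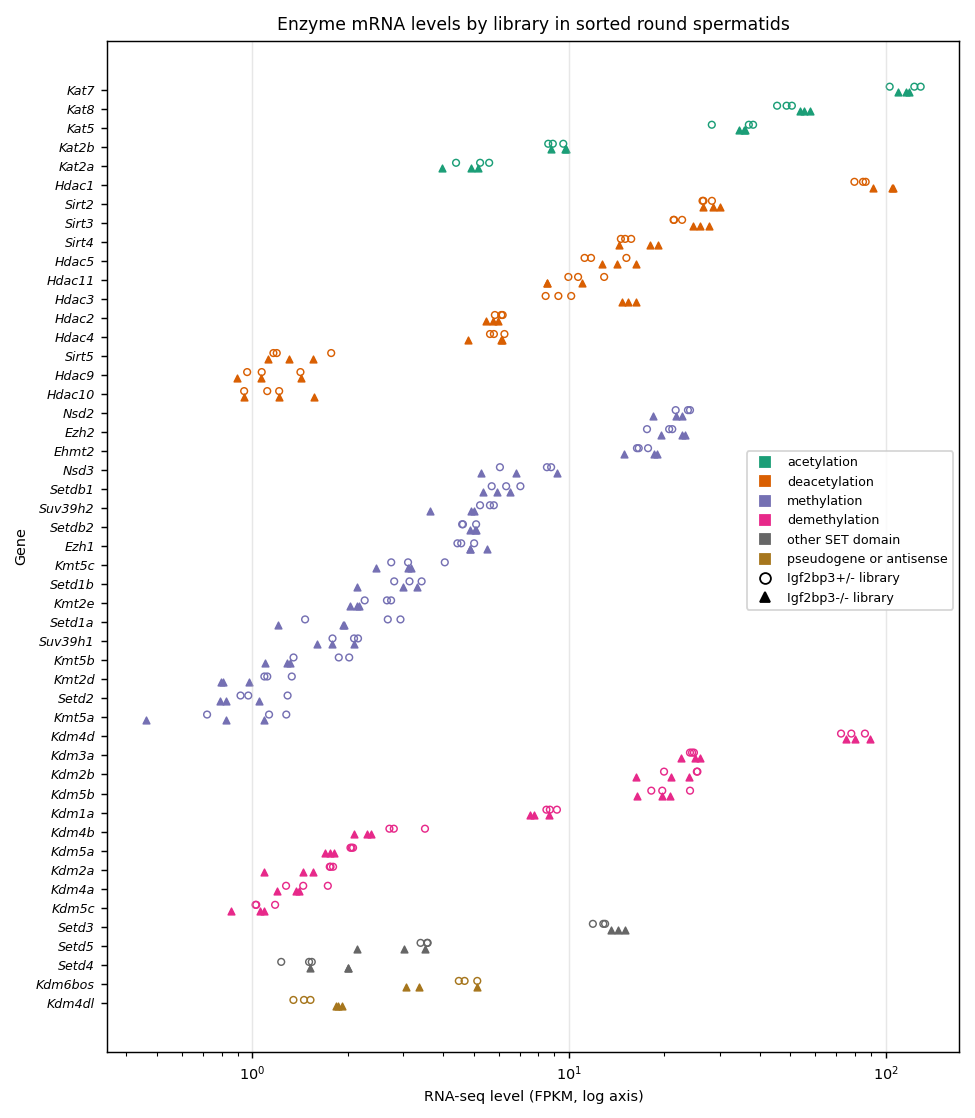
RNA-seq level in FPKM (log axis) of the 49 members with an Igf2bp3+/- mean of at least 1 FPKM, grouped by activity. Each open circle is an Igf2bp3+/- library and each filled triangle an Igf2bp3-/- library (3 each). Kat7, Hdac1, Kdm4d and Kat8 lie to the right of all others, and for most genes the symbols of the genotypes overlap, with Hdac3 the clearest exception.

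The sex-linked members were low. The 5 members on the X chromosome (Hdac6, Hdac8, Kdm5c, Kdm6a and Suv39h1) ranged from 0.0813 to 2.02 FPKM with a median of 0.222, whereas the 67 autosomal members had a median of 2.56 FPKM. Suv39h1 measured 2.097, 1.79 and 2.16 FPKM and its autosomal paralog Suv39h2 measured 5.79, 5.24 and 5.63 FPKM. The sets did not overlap, with the autosomal copy higher in every library. Kdm5c was at 1.08 ± 0.089 FPKM, below the autosomal Kdm5a (2.06 ± 0.020 FPKM) and Kdm5b. The Y-linked Kdm5d was close to 0, at 0.0350 ± 0.016 FPKM. The genes of the X chromosome are silenced at meiosis and remain largely repressed in round spermatids, which is given as background.

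Promoter sequences from RefSeq (GRCm38.p6) were found for 55 of the 73 members and were searched, in the 250 bases before the start site and on both strands, for letters bound by factors common in this cell type and at housekeeping promoters. The cAMP response element TGACGTCA, the site of the spermatid activator CREM, was held by 1 member, Suv39h2, and by 1.77% of all 27025 symbols with a promoter. Its left part TGACGT, which every full site also holds, was found in 5 members (Kat5, Kat8, Kdm2b, Kdm5b and Suv39h2), or 9.09%, against 7.29% of all symbols. CCAAT was held by 27 members (49.1%, against 37.5%). The string GGGCGG, the core of a GC box, was held by 35 (63.6%, against 35.4%). The windows of Suv39h2 (chr2:3474987-3475236, minus strand), Kat8 (chr7:127912267-127912516, plus strand) and Kat5 (chr19:5609745-5609994, minus strand) are printed because Suv39h2 holds the full element and Kat8 and Kat5 are the most abundant members with the shorter string. Each runs 5′ to 3′ on the strand of its gene and ends just before the RefSeq start site used. Capitals mark TGACGTCA in Suv39h2 and TGACGT, or its reverse complement ACGTCA, in the others. The start in GENCODE M21 can differ. The whole Kat5 window lies within the GENCODE gene (chr19:5603014-5610237), so it is not upstream of that gene's start. The end of the Suv39h2 window also lies within its GENCODE gene (chr2:3455815-3475031).
Suv39h2: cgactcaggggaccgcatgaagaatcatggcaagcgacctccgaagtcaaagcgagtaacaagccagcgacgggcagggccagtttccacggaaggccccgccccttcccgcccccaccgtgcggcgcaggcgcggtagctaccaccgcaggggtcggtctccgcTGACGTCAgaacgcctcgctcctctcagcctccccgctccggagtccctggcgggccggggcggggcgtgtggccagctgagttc
Kat8: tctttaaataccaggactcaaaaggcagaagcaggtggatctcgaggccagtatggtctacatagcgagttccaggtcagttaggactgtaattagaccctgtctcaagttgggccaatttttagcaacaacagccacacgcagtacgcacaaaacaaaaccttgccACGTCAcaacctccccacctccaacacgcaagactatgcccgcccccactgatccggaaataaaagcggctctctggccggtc
Kat5: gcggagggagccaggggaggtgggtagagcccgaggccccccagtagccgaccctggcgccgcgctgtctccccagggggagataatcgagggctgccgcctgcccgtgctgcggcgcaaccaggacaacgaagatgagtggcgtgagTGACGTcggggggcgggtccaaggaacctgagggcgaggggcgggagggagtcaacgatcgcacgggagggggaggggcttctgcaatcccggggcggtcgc
The element lay 85 to 78 bases before the RefSeq start site in Suv39h2 and the shorter string 83 to 78 bases before it in Kat8. In Kat5 the shorter string lay 102 to 97 bases before the RefSeq start site, within the GENCODE gene. Such matches are a description of the letters and not of binding.

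Polysome loading, the log2 ratio of RNC-seq to RNA-seq FPKM within a genotype, asked which of these mRNAs were carried on heavy polysomes. In Igf2bp3+/- cells most enzyme mRNAs were depleted from the polysome fraction relative to total RNA. Of 61 members tested 32 passed the limit with lower loading, or 52.5%, where 25.2% of all 18414 genes tested did, and 3 passed with higher loading (Hdac5 and the mitochondrial Sirt4 and Sirt3), or 4.92%, against 18.6% of all genes. The median loading of the members was -0.70, against -0.10 over all genes. FPKM is relative within a library, so that 0 marks the average mRNA and not equal amounts.

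The methyltransferases had the lowest loading. All 21 tested lay below 0 and 16 passed the limit, with a class median of -1.13. All 6 tested members classed here as H3K4 methyltransferases passed. Kmt2d, the enhancer H3K4 enzyme MLL4, measured 1.09, 1.12 and 1.33 FPKM in RNA-seq and 0.0938, 0.105 and 0.0833 FPKM in RNC-seq of the Igf2bp3+/- libraries. The sets were far apart, and the loading of -2.72 ± 0.28 (SE, limma adjusted p = 1.48e-05), a 6.59-fold depletion on this scale, was the lowest of any member. Setd1b (-2.02 ± 0.27) and Setd1a (-1.93 ± 0.33), the SET1 enzymes that trimethylate H3K4 at promoters, Kmt2c (-1.77 ± 0.28) and Kmt2e (-1.69 ± 0.21) followed. The Setd1a value is uncertain, since 51.8% of its exonic bases are shared with another annotated gene on the same strand. Of the 5 H3K36 methyltransferases 3 passed: Nsd2 (-1.93 ± 0.18), Ash1l (-1.77 ± 0.27) and Setd2 (-1.26 ± 0.35), the enzyme of H3K36 trimethylation.

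Nsd2 showed that depletion was not limited to low mRNAs. Its RNA-seq values were 21.7, 23.8 and 24.1 FPKM and its RNC-seq values 5.37, 5.71 and 7.14 FPKM, with no overlap. All 3 H4K20 methyltransferases (Kmt5a, Kmt5b and Kmt5c) passed as well, from -1.07 to -1.37. Among the H3K9 methyltransferases Setdb2 (-1.06 ± 0.24), Setdb1 (-0.95 ± 0.21) and Suv39h2 (-0.68 ± 0.17) passed, whereas Ehmt2 measured -0.15 ± 0.21 (adjusted p = 0.615). Of the PRC2 enzymes Ezh1 passed (-1.13 ± 0.30) and the more abundant Ezh2 did not (-0.40 ± 0.18, adjusted p = 0.0875).

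Of 14 demethylases tested 9 had lower loading. All 3 tested H3K4 demethylases, Kdm5a, Kdm5b and Kdm5c, fell within -1.60 to -1.59. For Kdm5b 18.2, 19.7 and 24.1 FPKM in RNA-seq stood against 6.11, 5.60 and 8.78 FPKM in RNC-seq. Kdm2a, an H3K36 demethylase that binds CpG islands, had the lowest loading of the class at -1.99 ± 0.26 (adjusted p = 8.07e-05). The 2 demethylases tied to spermiogenesis differed: Kdm3a was depleted (-0.77 ± 0.16, adjusted p = 0.00189), with 13.1, 13.4 and 16.8 FPKM in RNC-seq, while Kdm4d measured -0.15 ± 0.16 (adjusted p = 0.463), with 64.6, 71.4 and 76.2 FPKM. That the 2 differ from each other was not tested.

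The deacetylases split. Hdac5 measured 15.2, 11.7 and 11.2 FPKM in RNA-seq and 40.8, 21.1 and 18.2 FPKM in RNC-seq, a loading of 0.98 ± 0.24 (adjusted p = 0.0053) in which replicate 1 was far above the others. Without that replicate it was 0.77 and still passed. Sirt4 measured 15.1, 14.6 and 15.7 FPKM against 27.8, 27.5 and 25.5 FPKM, a loading of 0.83 ± 0.15 (adjusted p = 0.000795). Sirt3, at 0.41 ± 0.12 (adjusted p = 0.0156), lost its call when any 1 Igf2bp3+/- replicate was left out (adjusted p from 0.0526 to 0.1499) and with a replicate block (adjusted p = 0.0552). Lower loading was called for Hdac11 (-1.43 ± 0.19, adjusted p = 8.07e-05), Hdac2 (-0.83 ± 0.21) and Sirt2 (-0.57 ± 0.16). Hdac1 measured -0.15 ± 0.15 and Hdac3 0.31 ± 0.13, neither past the limit, though Hdac3 passed with median-centred libraries (0.48, adjusted p = 0.0051) and with the length trend removed (0.55, adjusted p = 0.00871).

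Among the acetyltransferases Kat7 was depleted 2.26-fold in spite of its high level, from the RNA-seq values given above to 49.4, 49.5 and 57.7 FPKM in RNC-seq (-1.18 ± 0.26, adjusted p = 0.00226). Kat6b (-1.27) and Kat2a (-1.14 ± 0.22) were lower too. Kat8, with 56.3, 52.1 and 62.7 FPKM in RNC-seq, measured 0.24 ± 0.13 (adjusted p = 0.164). In the polysome fraction Hdac1 (75.6 ± 4.8 FPKM) and Kdm4d (70.8 ± 5.8 FPKM) were the most abundant members, ahead of Kat8 (57.0 ± 5.3 FPKM) and Kat7 (52.2 ± 4.8 FPKM).

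Centring each library on its median log2 value moved the median control loading of all genes by 0.17 and quantile normalization moved it by 0.14. With the first, 30 members were lower and 6 higher, while 19.7% of all genes were lower and 25.7% higher. The enzymes were thus on the lower side under either scaling, and the split of all genes was not.

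In Igf2bp3-/- cells the same calculation gave 20 members lower, or 32.8% of 61, against 14% of all genes, and 2 higher, or 3.28%, against 12.5%. Of the 20 lower, 18 were also among the 32 of the control cells, that is 90.0% of the former and 56.2% of the latter. The matching shares over all genes were not computed, so this overlap is not read as particular to the enzymes. The exceptions were Suv39h1 (-1.10 ± 0.28) and the pseudogene Kdm4dl (-0.90 ± 0.28). The genotypes share no library in this calculation, only the estimate of the spread. Kmt2d and Kmt2c were lowest, each at -1.58 ± 0.28, followed by Nsd2 (-1.45 ± 0.18), Ash1l (-1.38 ± 0.27) and Kdm5a (-1.31 ± 0.20). Sirt4 (0.80 ± 0.15, adjusted p = 0.00241) and the antisense transcript Kdm6bos (0.85 ± 0.26) were higher. Kdm6bos shares bases with Kdm6b, and reads of the pair cannot be told apart if strand was not used. With a replicate block Ezh1 (-0.83, adjusted p = 0.0284 in place of 0.0535) and Hdac5 (0.54, adjusted p = 0.0478 in place of 0.121) passed as well. The median was -0.46, against -0.04 over all genes. The count depended on the libraries: without Igf2bp3-/- replicate 1 there were 11 members lower and without replicate 3 there were 10. Fewer libraries can cost calls for all genes, and the share of all genes in these fits is not given here.

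**Figure D2:**
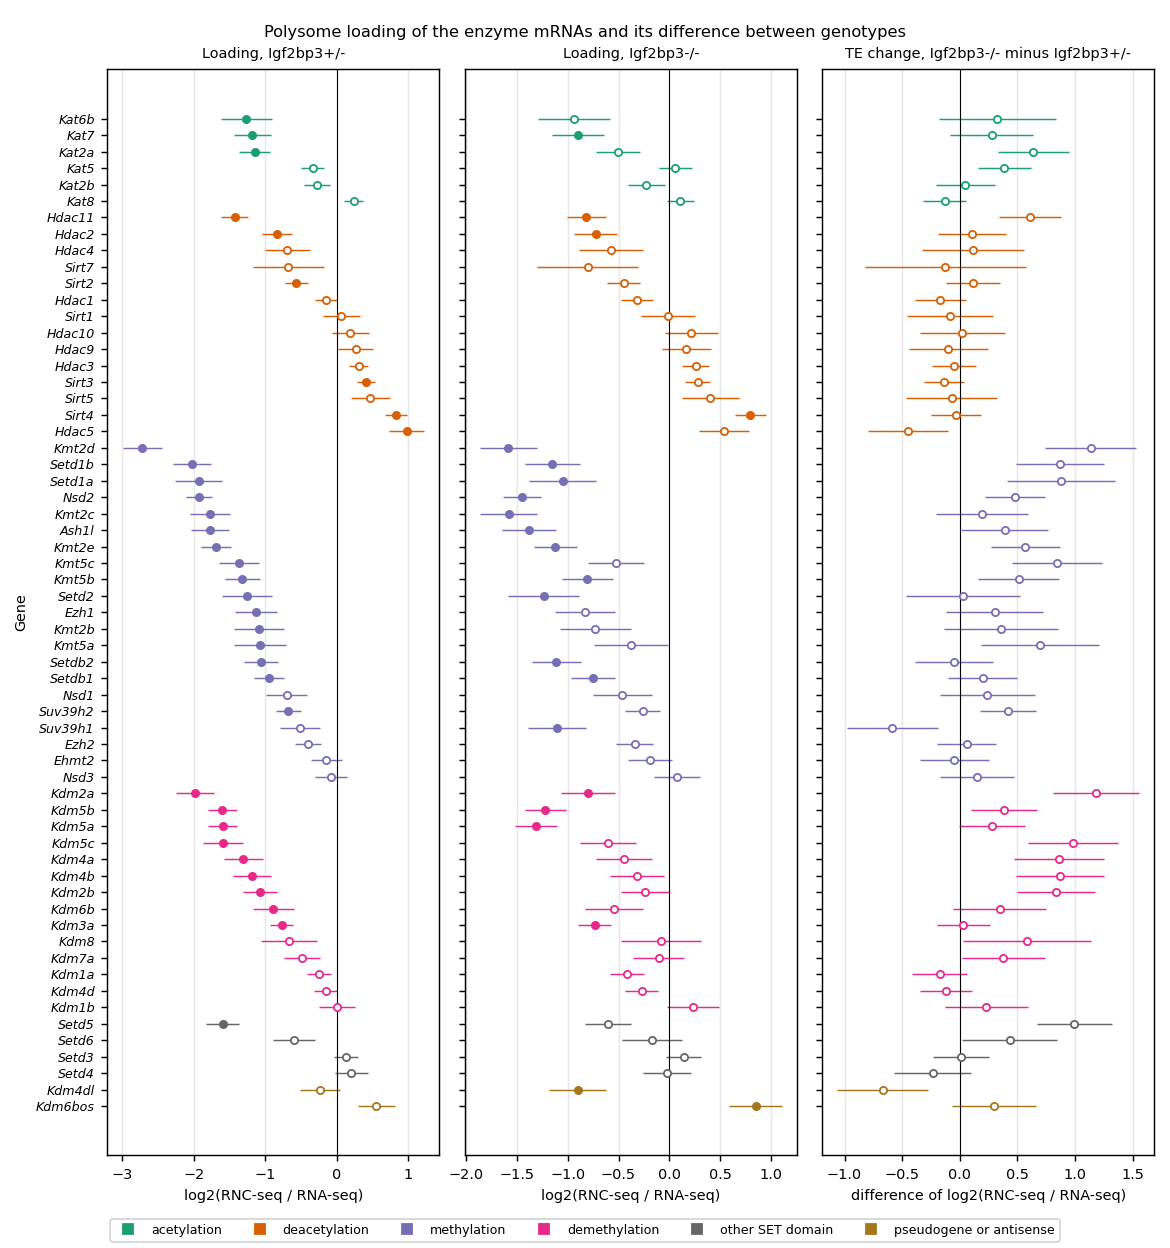
Polysome loading, log2 of RNC-seq over RNA-seq, of 61 members in Igf2bp3+/- and Igf2bp3-/- cells, and the difference between them (TE change), by activity. Points are limma estimates, bars are SE (3 libraries a group) and filled points passed an adjusted p of 0.05. Methyltransferases and demethylases lie mostly left of 0 in the first panels and mostly right of 0 in the last, where no point is filled.

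Loading moved with transcript length in these cells. Over 12823 protein-coding genes tested the median loading in Igf2bp3+/- cells was 0.06 for longest transcripts up to 3000 bases, -0.48 between 3000 and 6000 bases and -0.87 above 6000 bases. The members followed the same order at a lower level, with -0.33 (15 members), -0.68 (22 members) and -1.59 (22 members), and they were long, with a median of 4577 bases against 3046. Across the 59 protein-coding members tested, which share the same 6 libraries, Spearman's rho between length and loading was -0.55, and it was -0.47 across all protein-coding genes. After a trend on length was removed from each library, 24 members passed the limit with lower loading and 6 with higher, against 20.9% and 15.1% of all genes, and the median was -0.48. Some long members lay above the member median of their bin, -1.59. Nsd3 (10105 bases), at -0.07 ± 0.23, was also above the -0.87 of all genes of that bin. Nsd1 (12784 bases), at -0.70 ± 0.29 (limma adjusted p = 0.0672), was near that value.

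**Figure D3:**
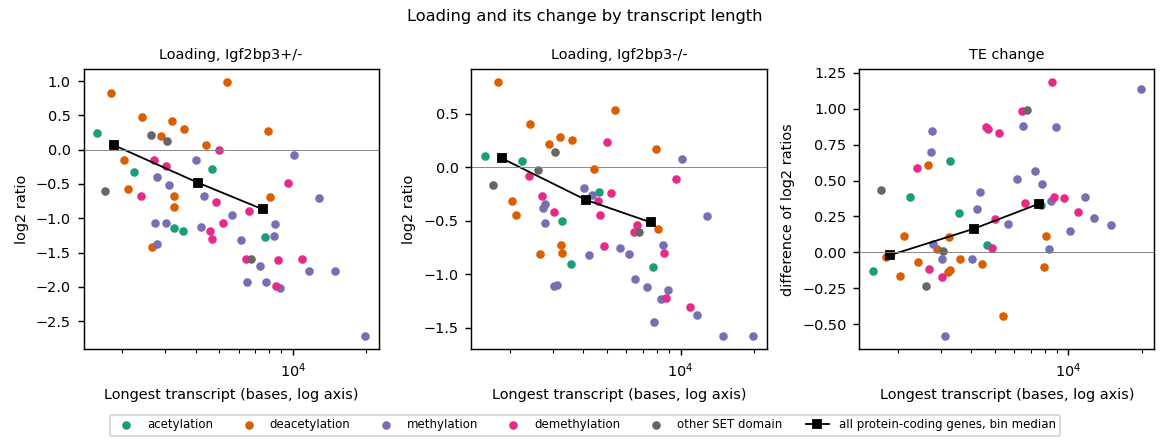
Polysome loading in each genotype and the TE change (log2, vertical) against the longest annotated transcript (bases, log axis) for 59 protein-coding members coloured by activity. The black line joins the medians of all protein-coding genes in 3 length bins. Loading falls with length, from 0.06 to -0.87 along the line in Igf2bp3+/- cells, and the TE change rises with it.

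The RNA-seq comparison of genotypes asked whether loss of IGF2BP3 changed the levels of these mRNAs. A single member passed the limit. For Hdac3 the control values were 9.26, 10.2 and 8.44 FPKM and the knockout values 15.4, 14.7 and 16.3 FPKM, which did not overlap. The change was 0.73 ± 0.11 (95% interval 0.48 to 0.97, limma adjusted p = 0.0453), a 1.66-fold rise. The same gap stood in RNC-seq, with 11.9, 11.4 and 11.1 FPKM against 19.6, 17.5 and 18.3 FPKM, a change of 0.68 ± 0.20 (limma adjusted p = 0.632). The size of the RNA-seq change held from 0.65 to 0.79 under every alternative, but the call did not: the adjusted p ranged from 0.0219 to 0.255 and passed the limit in no fit that left out a library.

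Of the 67 members tested in RNA-seq, then, 1 was higher and 0 lower, against 0.197% and 0.059% of all 20352 genes tested. Before adjustment 6 were higher with p under 0.05 (8.96%, against 10.4% of all genes) and 2 lower (2.99%, against 5.32%). No overlap between genotypes was seen for 9 members that were higher (13.4%, against 14.1%) and 8 that were lower (11.9%, against 8.68%), so that the members stood near the background. The median change was -0.06, against 0.05 over all genes.

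None of the members without overlap other than Hdac3 passed the adjusted limit, and the values of the larger ones follow. Hdac1 measured 86.6, 84.9 and 79.8 FPKM against 91.2, 105 and 105 FPKM (0.26 ± 0.09, adjusted p = 0.24), Sirt3 21.5, 21.4 and 22.8 FPKM against 24.6, 26.0 and 27.8 FPKM (0.25 ± 0.09, adjusted p = 0.255), and Kat8 averaged 48.3 ± 2.6 against 55.6 ± 2.1 FPKM (0.20 ± 0.08). The pseudogene Kdm4dl read 1.46, 1.35 and 1.53 against 1.91, 1.84 and 1.87 FPKM (0.36 ± 0.15). On the lower side stood Kmt5b, an H4K20 methyltransferase (1.75 ± 0.35 against 1.23 ± 0.12 FPKM, -0.46 ± 0.20), Kmt2d (1.18 ± 0.13 against 0.858 ± 0.10 FPKM, -0.42 ± 0.19), Kdm4b (-0.39 ± 0.15), Kdm2a (-0.37 ± 0.18) and Suv39h2 (-0.30 ± 0.15). The 9 higher were 6 of the 16 deacetylases tested (Hdac1, Hdac3, Sirt3 and, below 1 FPKM, Hdac6, Hdac8 and Sirt7), or 37.5%, with Kat8, Setd3 and Kdm4dl, and the 8 lower were 4 of 16 demethylases (25%) and 4 of 22 methyltransferases (18.2%), where 14.1% of all genes were higher and 8.68% lower. Hdac8 was tested only because of its higher knockout values, so its side was fixed by the filter. The classes were set side by side after their values were seen, and a difference between them was not tested. The abundant Kat7 (-0.04 ± 0.10), Kdm4d (0.05 ± 0.10), Kdm3a (95% interval -0.21 to 0.21) and Ezh2 (0.14 ± 0.11) had intervals that held 0.

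Summed markers of somatic testis cells moved with genotype in the same libraries, though not every gene of each list did. The 7 Leydig cell genes summed to 15.4 to 22.6 FPKM in Igf2bp3+/- RNA-seq and 48.6 to 55.0 FPKM in Igf2bp3-/- RNA-seq, with 4 of 7 past the limit, and to 6.75 to 14.3 against 51.5 to 103 FPKM in RNC-seq. Sertoli genes (9 listed) summed to 4.47 to 5.20 against 9.27 to 9.96 FPKM in RNA-seq, peritubular and endothelial genes (7 listed) to 2.29 to 2.91 against 4.79 to 5.95 FPKM, and macrophage genes (8 listed) to 4.95 to 6.28 against 8.28 to 9.48 FPKM. Past the limit in RNA-seq were Clu and Ctsl of 6 Sertoli genes tested, Dcn of 6 peritubular and endothelial genes and Cd74 of 8 macrophage genes. Above 0 were 4 of 6, 3 of 6 and 8 of 8 genes, in that order. The median change of the peritubular and endothelial list was -0.08. No gene of these lists was at 0 in all RNA-seq libraries. Of the germ cell lists, round spermatid genes summed to 1395 to 1541 against 1646 to 1910 FPKM in RNA-seq, and the spermatocyte, spermatogonial and elongating spermatid sums overlapped. The part of these cells in the Hdac3 value or in any other member was not tested, and in bulk libraries fewer cells of a type and less RNA per cell cannot be told apart.

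In RNC-seq 0 of 61 members passed the limma limit in either direction, against 0.0787% higher and 0.0367% lower of 19051 genes. Before adjustment Hdac3, Kdm2a, Kdm2b, Kdm5c and Setd5 were higher with p under 0.05, that is 5 members or 8.2%, against 5.36% of all genes, and 0 were lower, against 1.12%. Libraries did not overlap for 6 members higher (9.84%, against 9.44%) and 0 lower (against 1.85%). Kmt2d was among the 6, and its side in RNC-seq was fixed by the filter. Median-centring moved the median change of all genes by -0.12 and quantile normalization by -0.14. Setd5, a SET-domain protein of transcribed chromatin, measured 1.26, 1.02 and 1.02 FPKM against 1.53, 2.46 and 1.62 FPKM (0.69 ± 0.29, adjusted p = 0.756), and Kat5 26.5, 28.9 and 26.2 FPKM against 36.3, 45.0 and 30.8 FPKM (0.44 ± 0.21, adjusted p = 0.768). Kat7 showed how far 1 library reached: the Igf2bp3-/- values were 39.8, 105 and 55.0 FPKM, against 49.4, 49.5 and 57.7 FPKM in the controls, so that only replicate 2 lay above the controls.

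The TE comparison, the difference of polysome loading between genotypes, asked whether loss of IGF2BP3 altered the translation of these mRNAs. No member passed the limit in either direction (limma, smallest adjusted p = 0.686), where 0.00543% of all 18414 genes were higher and 0% lower. On balance the values lay on the higher side in Igf2bp3-/- cells: 44 of 61 members were above 0, and the median change was 0.24, against 0.06 over all genes. Before adjustment 10 members were higher with p under 0.05 (16.4%, against 5.54%) and 0 lower (against 1.58%). Without Igf2bp3-/- replicate 2 there were 2 higher (3.28%, against 3.29%) and 2 lower (3.28%, against 1.01%). Without Igf2bp3+/- replicate 1 there were 4 higher (6.45%, against 3.33%) and without Igf2bp3+/- replicate 3 there were 2 (3.28%, against 4.76%), with 0 lower in either. Ratios of same-numbered libraries did not overlap for 14 members higher (23.0%, against 9.63%) and 0 lower (against 3.02%). Leaving out a replicate can only raise such counts, for all genes as for the members. Without Igf2bp3+/- replicate 2 there were 18 higher and 4 lower (29.5% and 6.56%, against 13.8% and 17.0%), without Igf2bp3-/- replicate 1 there were 21 and 6 (34.4% and 9.84%, against 14.9% and 11.3%), and without Igf2bp3-/- replicate 3 there were 22 and 1 (36.1% and 1.64%, against 21.8% and 5.95%). Without each of the other 3 replicates in turn there were 14 to 17 higher and 0 to 3 lower, against 12.9% to 16.8% and 4.36% to 5.31% of all genes. The median log2 ratio of the members averaged -0.72 ± 0.10 in the 3 Igf2bp3+/- replicates and -0.47 ± 0.21 in the 3 Igf2bp3-/- replicates (SD), a gap little larger than the spread.

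The 8 largest TE values were those of 4 demethylases, 3 methyltransferases and Setd5. Control loading enters the TE difference with a minus sign, so that low loading and a high TE value are not independent of each other. Kdm2a had 0.250, 0.537 and 0.375 FPKM in control RNC-seq and 0.647, 0.957 and 0.631 FPKM in Igf2bp3-/- RNC-seq, over RNA-seq values of 1.76 to 1.80 and 1.09 to 1.56 FPKM. Its log2 ratios were -2.41, -1.58 and -1.97 in the controls and -1.05, -0.65 and -0.70 in the knockout, which did not overlap, and the TE change was 1.19 ± 0.37 (limma adjusted p = 0.686, unadjusted p = 0.00677). The TE value of Kmt2d was 1.14 ± 0.39, with ratios of -2.62, -2.57 and -2.97 against -1.60, -1.14 and -2.001. Its RNC-seq levels were near 0.1 FPKM in the controls and 0.123 to 0.311 FPKM in the knockout, close to the added 0.1. The control RNC-seq mean (0.0939 FPKM) was below the filter, so Kmt2d was tested only through its higher knockout values. Passing in that way favours a high TE value. Kmt2d is counted among the 10 members at an unadjusted p under 0.05 and the 14 without overlap. Setd5 followed (0.99 ± 0.32, ratios -1.43, -1.65 and -1.71 against -1.15, -0.28 and -0.38), then Kdm5c (0.98 ± 0.39), Setd1a (0.88 ± 0.47), Setd1b (0.87 ± 0.38), Kdm4b (0.87 ± 0.38) and Kdm4a (0.86 ± 0.39). Of the 14 members without overlap, 6 were methyltransferases, 5 demethylases, 1 a deacetylase, 1 an acetyltransferase and 1 a further SET-domain gene.

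Hdac11, the class IV deacetylase, was named by the study partly from these same libraries, so its TE value is not independent evidence of a change. The study also reported IGF2BP3 binding to the transcript, the RNA methylation m6A in its 3′UTR and more HDAC11 protein in knockout spermatids. In knockout testes the translational repressor YBX2 bound less of the transcript. With IGF2BP3 and YBX2, a cell-line reporter carrying the m6A region of this 3′UTR had a lower translation efficiency. The study further reported better sperm motility and concentration after injection of siRNA against Hdac11. Hdac11 measured 12.9, 9.96 and 10.7 FPKM in control RNA-seq and 11.03, 8.52 and 8.503 FPKM in the knockout (-0.26 ± 0.15, adjusted p = 0.427), which overlapped. In RNC-seq the values were 3.74, 4.77 and 3.81 FPKM against 6.498, 4.79 and 4.59 FPKM (0.35 ± 0.25, adjusted p = 0.831), and these overlapped too. The log2 ratios were -1.76, -1.05 and -1.47 against -0.75, -0.82 and -0.88, without overlap, and the TE change was 0.61 ± 0.27 (95% interval 0.03 to 1.18, limma adjusted p = 0.689, and 0.477 to 1.00 over the alternatives). Hdac11 lies on chromosome 6 (GRCm38, 91156665 to 91174692, plus strand, 10 exons), and 17.9% of its exonic bases are shared with genes on the opposite strand, whose reads cannot be told apart if strand was not used.

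The TE values of the members were smaller with other scaling and with a length correction. Centring every library on its median log2 value moved the median TE change of all genes by -0.13. The median of the members was then 0.11, against -0.07 over all genes. Without overlap were 10 members on the higher side (16.4%, against 5.58% of all genes) and 6 on the lower (9.84%, against 10.2%). Before adjustment 4 members were then higher with p under 0.05 (6.56%, against 2.67%) and 0 lower (against 5.87%). The TE change rose with length over all protein-coding genes, from -0.02 up to 3000 bases to 0.34 above 6000 bases, and over the members it was 0.06, 0.04 and 0.38 in the 3 length bins. With the length trend removed the median of the members was 0.07, against 0.06 over all genes, with 11 members without overlap on the higher side (18.0%, against 8.97%) and 1 on the lower (1.64%, against 3.03%).

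**Figure D4:**
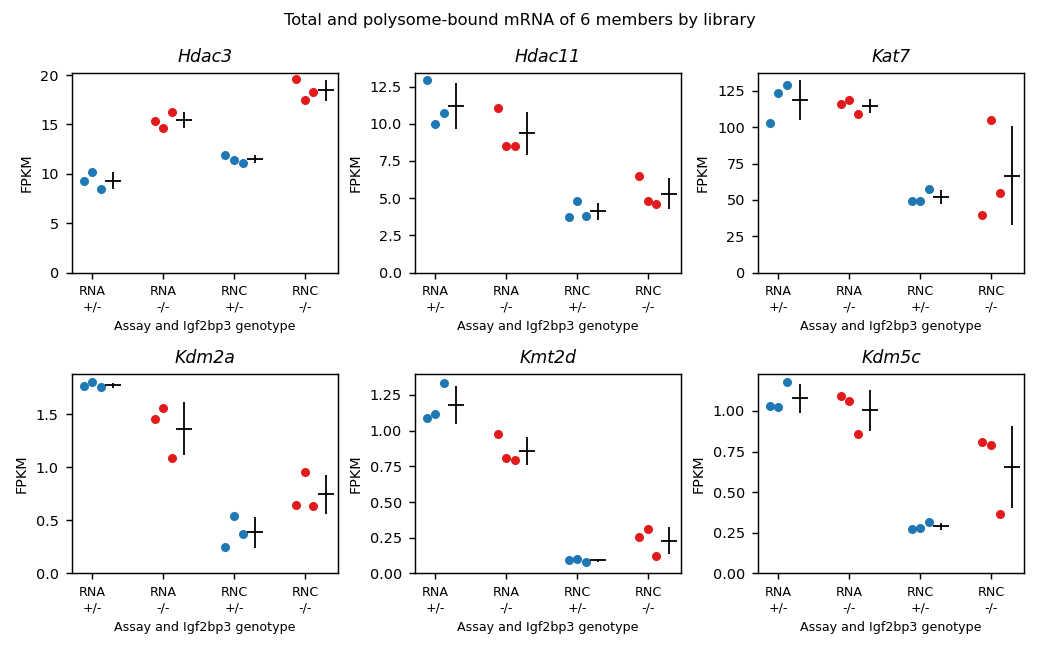
FPKM by library of 6 members in RNA-seq and RNC-seq for each Igf2bp3 genotype. Coloured points are libraries, horizontal marks are means and vertical bars are SD (n = 3). Hdac3 is higher in the knockout in both assays, Kat7 has a single high Igf2bp3-/- RNC-seq library, and Kdm2a, Kmt2d and Kdm5c are far lower in RNC-seq than in RNA-seq of Igf2bp3+/- cells.

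The proteins that work with these enzymes were counted in the same way. The lists were 39 other histone acetylation and methylation enzymes (such as the Prmt and Smyd genes), 22 partners in deacetylase complexes, 35 in acetyltransferase complexes and 20 in COMPASS and PRC2. Of each list 0 genes passed the limma limit in the RNA-seq, RNC-seq or TE comparison in either direction. Before adjustment 1 of 35, 3 of 22, 5 of 35 and 3 of 20 genes tested, in that order of the lists, were higher in RNA-seq with p under 0.05 (against 10.4% of all genes) and 2, 1, 3 and 1 lower (against 5.32%). In RNC-seq 3 of 31, 2 of 21, 3 of 34 and 3 of 20 were higher (against 5.36%) and 0 lower. In TE 5, 3, 5 and 2 of the same numbers were higher (against 5.54%) and 1, 0, 1 and 0 lower (against 1.58%). Their median RNA-seq changes were -0.02, 0.08, 0.06 and -0.09, and their median TE changes were 0.30, 0.01, 0.14 and 0.21. In control polysome loading, where 25.2% of all genes were lower and 18.6% higher, 13 of 31 other enzymes tested (41.9%) were lower and 0 higher. Lower loading was called for 11 of 21 deacetylase partners (52.4%), 11 of 34 acetyltransferase partners (32.4%) and 11 of 20 COMPASS and PRC2 partners (55%), and higher loading for 3, 3 and 1. Their median loadings were -0.64, -0.53, -0.23 and -0.78, so that the partners of the H3K4 and H3K27 methyltransferases were the lowest of the 4 lists.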

How the data were processed

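The authors deposited FPKM in 1 table, with genes named by symbol and 12 columns of values, each of which matched 1 sample. Per the labels and the study's methods, reads were trimmed (Trim Galore 0.6.6), aligned to GRCm38 (HISAT2) and quantified with StringTie 2.1.7 against an annotation, the release of which is not given in the sources used here. Whether strand was used is not given either. The labels describe directional poly(A) libraries, and the methods another library kit. Since FPKM carries no read totals, sequencing depth is unknown here and counting intervals were not computed.

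Of 28668 symbols, 25 had been turned into dates by a spreadsheet (0.0995% of the summed FPKM) and were left out. The 73 members matched 1 gene each in GENCODE M21 (GRCm38), which gave positions, lengths and overlaps. A gene counted as a near-identical copy when 50% or more of a member's longest transcript matched it at 95% identity or above (BLAST 2.17.0), which held for Hdac1, Kat2b and Setd1a.

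A pseudocount of 0.1 FPKM was added before taking log2. The tests were those of limma 3.58.1 (R 4.3.3), two-sided and with an intensity trend, and used Benjamini-Hochberg adjustment over all genes tested. The genotype fits held the 6 libraries of an assay and the genes whose mean exceeded 0.1 FPKM there. Loading and TE, the interaction of genotype and assay, came from 1 fit over 12 libraries and required that mean in RNA-seq and in RNC-seq alike. By the study's methods part of each mouse's extract was kept for RNA-seq and the rest was fractionated for RNC-seq, so same-numbered libraries of a genotype were taken as pairs in the TE ratios and in the replicate block, although the labels do not say that a number marks a mouse. Their deviations from the group means correlated at 0.16 to 0.26 in 4 of 6 pairs and at -0.05 and -0.10 in the others. The study counts 3 biological replicates in these comparisons and isolated round spermatids mouse by mouse, while the labels do not name the mice. If replicates of a group did not come from separate mice, p-values would measure only the spread between these libraries. The fits were tested on simulated data with 200 changed genes.

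The members, the lists and the tests were chosen with earlier results of these data known. Named genes followed a rule: in each comparison members past the limit (at most 10 a direction) and up to 5 a direction with a mean of at least 1 FPKM and no overlap between groups, the 10 highest and 5 lowest tested in control RNA-seq, and a fixed set (Hdac11, Hdac1, Hdac2, Hdac3, Hdac6, Kat5, Kat8, Kdm3a, Kdm1a, Kdm5c, Kdm5d, Kdm4d, Suv39h1, Suv39h2, Setd2, Setdb1, Ehmt2, Ezh2, Kmt2d, Kmt5b, Sirt1, Sirt2 and Sirt7). Other members were named after their values were seen, to complete a family or a count. Alternatives were another pseudocount, filter, scaling, library weights, length correction, a replicate block and leaving out libraries.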

Additional observations from a re-analysis of the deposited data

How the results depend on the processing

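The loading of the enzyme mRNAs kept its direction under every alternative tried, and no called value of a named member changed sign in any. In Igf2bp3+/- cells 35 members passed in either direction as reported, 19 with a mean FPKM above 1 (3 higher and 16 lower), 12 by an unadjusted p under 0.05 with a log2 change over 1.5, and 29 to 37 when a replicate was left out. The median of -0.70 was -0.39 with a pseudocount of 1, -0.37 with a mean above 1, -0.53 with median-centred and -0.58 with quantile-normalized libraries, -0.48 with the length trend removed, and -0.92 to -0.66 when a replicate was left out. In Igf2bp3-/- cells 22 passed, 14 with a mean above 1, 2 by the unadjusted rule, and 11 to 23 without a replicate. The shares of all genes in the loading fits without a replicate are not given here. The RNA-seq count of 1 (Hdac3) became 0 without a filter on low values, with the length trend removed, by the unadjusted rule and without each of the 6 libraries in turn (0 to 0). The RNA-seq median of -0.06 was 0.010 with the length trend removed and -0.11 to -0.025 without a library. The TE count at an unadjusted p, 10 (16.4%, against 5.54% of all genes higher), was 5 with a mean above 1 (13.2%, against 5.65%). It was 4 with median-centred (6.56%, against 2.67%) and 4 with quantile-normalized libraries (6.56%, against 3.79%). With the length trend removed it was 7 (11.5%, against 5.57%). Without a replicate it was 2 to 11, where 3.29% to 8.99% of all genes were higher. The count without overlap in either direction, 14 (14 higher and 0 lower), was 16 to 27 without a replicate. Of these 14 to 22 were higher and 0 to 6 lower. The share of all genes without overlap on the higher side was then 12.9% to 21.8%, in place of 9.63%. The TE median of 0.24 was 0.055 with a mean above 1 and 0.072 with the length trend removed. The alternatives to these 2 TE counts were chosen after seeing the data. The cause of these shifts was not tested.

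Libraries of the 2 genotypes share only a number: their deviations correlated from -0.12 to 0.26 across genes, and they were not taken as pairs. With a replicate block 0 members passed in RNA-seq (Hdac3 limma adjusted p = 0.255), 0 in RNC-seq and 0 in TE. In TE 9 were higher with an unadjusted p under 0.05 (14.8%, against 6.16% of all genes) and 0 lower (against 2.00%). In the loading of Igf2bp3+/- and Igf2bp3-/- cells 34 and 24 passed. The shares of all genes in loading with the block are not given here. The block changed the calls of Hdac3 in RNA-seq, Sirt3 in control loading and Ezh1 and Hdac5 in knockout loading, and no other call of a member.

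With 3 libraries a group and no read counts, the number of fragments behind members below 1 FPKM is unknown.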
